A study of Mus musculus with 53 samples.

Results

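Fatty acid synthesis and desaturation was followed in mouse sciatic nerve through 10 genes, chosen by symbol from the 49568 genes listed for each sample. All 10 were found and all 10 passed the filter on low values in every comparison. They are Acly, Me1, Acaca, Acacb, Fasn, Elovl6, Scd1, Scd2, Thrsp and Mlxipl. RNA sequencing values from 53 nerve samples of male C57BL/6J mice were used, in 8 groups named by diet, drug and age. At 16 weeks of age there were 5 samples from mice on the standard diet (SD16wk) and 7 from mice on a high-fat diet (HFD16wk). A further 5 came from mice on the high-fat diet that also received streptozotocin (HFD-STZ16wk). At 24 weeks there were 8 SD24wk, 7 HFD24wk and 8 HFD-STZ24wk samples, together with 7 HFD-DR24wk and 6 HFD-STZ-DR24wk samples. For these last 2 groups, dietary reversal (DR) had returned the animals to the control diet at 16 weeks of age for 8 weeks. The high-fat diet supplied 60% of its calories as fat and began at 5 weeks of age in every group but the SD groups. Streptozotocin, a toxin of the insulin-secreting beta cells, was given at 12 weeks, first at 75 mg/kg and then at 50 mg/kg, so the HFD-STZ groups carry the high-fat diet as well as the drug. HFD served as the model of prediabetes and HFD-STZ as the model of type 2 diabetes (T2D), and none of the 8 groups received streptozotocin without the high-fat diet.

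De novo lipogenesis turns citrate exported from the mitochondria into fatty acids. Acly splits the citrate into acetyl-CoA, Acaca carboxylates it to malonyl-CoA, Fasn joins these units into palmitate with NADPH that Me1 helps to supply, and Elovl6 and the Scd enzymes lengthen and desaturate the product. Insulin and carbohydrate drive these genes through Srebf1 and Mlxipl in liver and fat, and dietary fat lowers their expression there. In nerve, Schwann cells use the pathway to build the lipids of myelin, and adipocytes of the epineurium, the outer sheath of the nerve, use it as well.

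Each value is the log2 value that the authors deposited for a gene in a sample. The values are not corrected for transcript length, so levels are compared only for one gene between samples and never between genes. The number of reads behind a value is unknown, so the error given is the spread between samples. Differences are differences between group means on this log2 scale, tested with limma, and a gene was called where the Benjamini-Hochberg adjusted p was under 0.05 over all genes tested. The labels do not say that every sample came from a separate mouse. If some samples shared a mouse, the p-values would measure only the spread between samples. Because whole nerve was used, fewer cells of a type and less RNA per cell cannot be told apart.

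The 10 genes are protein coding and lie on 6 mouse chromosomes (GRCm38 build, GENCODE M21 annotation). Fasn (chr11:120805846-120824547, minus strand), Acly (chr11:100476353-100528000, minus) and Acaca (chr11:84129672-84401651, plus) share chromosome 11. Acacb (chr5:114146535-114250761, plus) and Mlxipl (chr5:135089890-135138382, plus) share chromosome 5, and Scd2 (chr19:44293674-44306864, plus) and Scd1 (chr19:44394455-44407879, minus) are neighbours on chromosome 19. Elovl6 is at chr3:129532355-129638495 (plus), Me1 at chr9:86581371-86695953 (minus) and Thrsp at chr7:97412938-97417730 (minus). Where reads could belong to another gene matters for a few of them. Of 100-base stretches of the longest Acaca transcript, 42.83% also occur in Gm5182, and of those of Me1, 14.532% occur in Gm7049 or Gm7329. Values of Acaca and Me1 are therefore uncertain as far as the authors' counting split such reads. Gm7329 had deposited values from 1.36 to 2.10 over the samples, and Gm5182 and Gm7049 were not among the genes listed. The libraries were non-stranded by the methods of the study. Of the exon bases of Mlxipl, 4.243% overlap Gm43500 on the opposite strand, whose reads cannot be told from those of Mlxipl. For Scd1, Scd2 and Elovl6 the shared stretches came to 2.662%, 0.896% and 0.974%, and for the other 5 genes to 0.

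The promoters of Fasn and Acly are shown because these genes varied together between samples, and that of Thrsp because its values had the widest span of group means. RefSeq (GRCm38.p6) promoter windows matched 8 of the 10 genes and hold 10 start sites of them. Scd1 and Scd2 had no match. Each window runs from 250 bases before to 50 after the start, and the 250 bases before it are given, 5′ to 3′ on the strand of the gene. Motifs were searched in these 250 bases only, in the windows of the 10 genes and of all genes alike. In Fasn and Thrsp the capitals mark CCAAT boxes, read as CCAAT on the strand of the gene or as its reverse complement on the other, and in Acly they mark GC boxes (GGGCGG) on either strand.
Fasn chr11:120824548-120824797: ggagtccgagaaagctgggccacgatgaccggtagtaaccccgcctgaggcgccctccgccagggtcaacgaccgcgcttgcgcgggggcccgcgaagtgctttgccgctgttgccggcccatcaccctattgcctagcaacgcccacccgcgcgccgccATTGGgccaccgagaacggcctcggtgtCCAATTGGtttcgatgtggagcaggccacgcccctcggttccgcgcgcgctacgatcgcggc
Acly chr11:100528001-100528250: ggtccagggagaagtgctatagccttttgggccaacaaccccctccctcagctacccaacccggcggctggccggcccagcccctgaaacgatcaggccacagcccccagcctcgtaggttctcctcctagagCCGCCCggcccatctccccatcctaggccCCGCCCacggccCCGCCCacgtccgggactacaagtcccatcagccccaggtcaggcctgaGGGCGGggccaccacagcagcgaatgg
Thrsp chr7:97417551-97417800: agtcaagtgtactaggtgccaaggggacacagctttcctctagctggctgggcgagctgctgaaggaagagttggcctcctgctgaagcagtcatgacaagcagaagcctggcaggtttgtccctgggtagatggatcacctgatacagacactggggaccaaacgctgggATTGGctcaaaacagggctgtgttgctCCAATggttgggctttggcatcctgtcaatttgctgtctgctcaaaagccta
The Fasn window held 3 CCAAT boxes between 90 and 55 bases before the start, a pair of which overlap, and the Thrsp window held 2 between 79 and 48 bases. These starts are those of RefSeq. In GENCODE, Thrsp reaches to 97417730, within the bases printed, so its 2 boxes lie inside the gene as annotated there. The Acly window held 4 GC boxes between 117 and 22 bases before the start. A CCAAT box on either strand was found in 5 of the 10 windows of these genes and in 33.8% of 32851 windows of all genes, and GGGCGG in 3 of the 10 and in 32.7%. The E-box CACGTG was found in 1 of the 10 windows, that of Mlxipl, and in 6.02% of all windows. The sterol response element was searched as TCACNCCAC and was found in 1 of the 10, at another start of Mlxipl, and in 1.05% of all windows. These matches describe the letters of the windows only.

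The nerve samples carried strong Schwann cell RNA. Over the groups, the mean of Pmp22, a protein of compact myelin, lay between 19.96 and 20.61. Other tissues were present to a variable degree. The adipocyte score, the mean log2 value of Adipoq, Plin1, Cidec, Lep, Fabp4, Cfd and Retn, ran from 8.24 to 14.13 over the 53 samples, and the skeletal muscle score of 6 genes ran from 6.52 to 17.07. The myelinating Schwann cell score (Mbp, Prx, Pmp22 and Mag) ran only from 17.43 to 18.53. No marker of these 3 lists was at 0 in any sample. Of the hepatocyte markers, Apoa1 and Ttr had group means of 1.83 to 2.55, under the filter on low values, and Alb was the only one tested. HFD-STZ24wk replicate 7 and HFD-STZ-DR24wk replicate 4 stood apart from their groups, with a mean correlation with their own group of 0.940 and 0.955. Acacb and Acly changed direction without them between HFD-STZ-DR24wk and HFD-STZ24wk, and those values are given. Cell marker lists were not compared without them.

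SD24wk had the highest group mean of 7 of the 10 genes, namely Me1, Acaca, Acacb, Fasn, Scd1, Thrsp and Mlxipl, and SD16wk that of Acly, Scd2 and Elovl6. The lowest group mean was in HFD-STZ24wk for Fasn, Acaca, Scd2 and Me1, in HFD24wk for Elovl6, in HFD-STZ-DR24wk for Acly and Scd1, and in HFD-STZ16wk for Acacb, Thrsp and Mlxipl. Without HFD-STZ24wk replicate 7, which stood apart, Scd2 and Me1 were no longer lowest in that group. Acly was no longer lowest in HFD-STZ-DR24wk without its replicate 4. Between the highest and lowest means the order was gradual. When the 8 groups were ranked by their mean, all 7 steps between neighbours were smaller than the pooled SD of the neighbouring groups for 9 of the genes, and 6 of 7 were for Scd2. The exception was the step of 0.18 in Scd2 between HFD-DR24wk and HFD24wk, against a pooled SD of 0.17. The group means spanned 1.91 in Thrsp, 1.57 in Scd1, 1.42 in Mlxipl and 1.04 in Fasn, but only 0.51 in Scd2 and 0.36 in Me1.

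**Figure D1:**
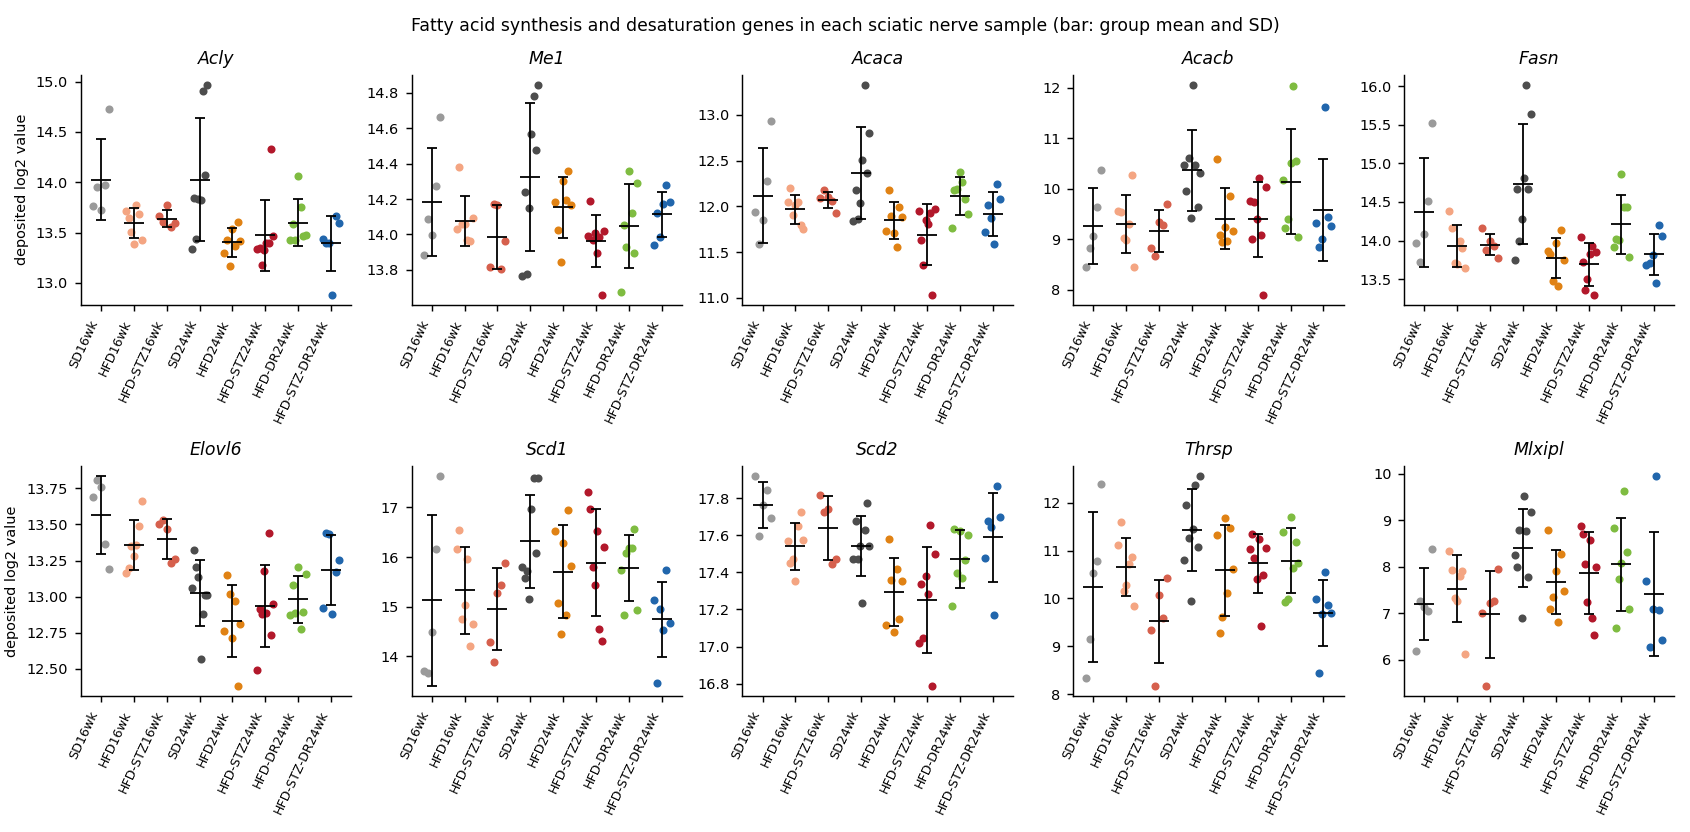
Deposited log2 value (vertical axes) of each of the 10 genes in each of the 53 sciatic nerve samples, by group (horizontal axes), with 1 point per sample and a bar at the group mean ± SD. The 8 SD24wk samples are the most spread for Fasn, from 13.75 to 16.02, and lie highest on average, while the 7 HFD24wk samples lie between 13.41 and 14.14.

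At 24 weeks, the question of which genes differ in the nerve of prediabetic mice was addressed by HFD24wk against SD24wk. All 10 genes had a lower mean in HFD24wk, with a median difference of -0.62 beside 0.01 over all genes, and none passed the adjusted threshold, which 0.121% of all genes did. Fasn, the synthase itself, had a mean of 14.73 ± 0.78 (SD, n = 8) in SD24wk and 13.78 ± 0.26 (SD, n = 7) in HFD24wk, so that it was 1.93-fold higher in SD24wk. Acly, which makes the acetyl-CoA, and Acaca, which makes the malonyl-CoA, differed by -0.62 (SE 0.22) and -0.52 (SE 0.19). An unadjusted p under 0.05 was reached by 5 of the 10, all lower, against 3.51% of all genes with such a p and a lower mean.

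Fasn lay between 13.75 and 16.02 in SD24wk, with a median of 14.67, and between 13.41 and 14.14 in HFD24wk, with a median of 13.82. The groups overlapped, but 6 of the 8 SD24wk samples were above the highest HFD24wk sample. The difference was -0.95 (SE 0.28, 95% interval -1.54 to -0.36, exact permutation p = 0.00575), and its adjusted p in limma was 0.259. It lay between -1.09 and -0.77 when each sample was left out in turn, with an adjusted p of 0.150 to 0.438. Samples carry library numbers that fall into 8 runs, each with about 1 sample of a group, and Fasn was lower in HFD24wk in all 7 runs that held both groups. Among all genes, 1.3% were lower in all 7 runs.

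Acly lay between 13.33 and 14.97 in SD24wk, with a median of 13.84, and between 13.17 and 13.61 in HFD24wk, with a median of 13.42. As for Fasn, 6 of 8 SD24wk samples were above every HFD24wk sample, and Acly was lower in HFD24wk in all 7 runs (exact p = 0.0104, adjusted p = 0.379 in limma). Me1, the cytosolic malic enzyme that yields NADPH, overlapped throughout, with 13.76 to 14.84 in SD24wk and 13.84 to 14.36 in HFD24wk, and its difference was -0.17 (95% interval -0.50 to 0.16).

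Acaca lay between 11.84 and 13.33 in SD24wk, with a median of 12.27, and between 11.56 and 12.18 in HFD24wk, with a median of 11.88, and 5 of 8 SD24wk samples were above all HFD24wk samples (exact p = 0.0177, adjusted p = 0.407). Acacb, the carboxylase at the mitochondrial surface whose malonyl-CoA restrains the import of fatty acids for oxidation, differed by -0.96 (SE 0.34, exact p = 0.0193, adjusted p = 0.385), and in SD24wk it ran from 9.43 to 12.06 with a single sample at the top. The ranges of both carboxylases overlapped between the groups.

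Among the genes that modify the chain, Scd2, the desaturase of neural tissue, differed by -0.25 (SE 0.11, exact p = 0.0172, adjusted p = 0.519), from 17.24 to 17.77 in SD24wk to 17.08 to 17.58 in HFD24wk. The myelinating Schwann cell score was 17.75 ± 0.19 in HFD24wk (n = 7) and 17.93 ± 0.20 in SD24wk (n = 8), a difference of -0.17 (exact p = 0.121) with all 4 of its genes lower, and its part in the Scd2 difference was not tested. Scd1, the desaturase of liver and fat, differed by -0.61, but with an SE of 0.44 and an interval of -1.54 to 0.33. Elovl6, which lengthens palmitate to stearate, differed by -0.19 (interval -0.44 to 0.05). The regulators Thrsp, a nuclear protein induced by thyroid hormone and carbohydrate, and Mlxipl, the carbohydrate-responsive transcription factor ChREBP, differed by -0.84 (SE 0.42, exact p = 0.0962) and -0.73 (SE 0.36, exact p = 0.0934), with adjusted p of 0.568 for both.

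The adipocyte score was 12.88 ± 1.16 in HFD24wk (n = 7) and 12.24 ± 0.93 in SD24wk (n = 8), a difference of 0.63 (exact p = 0.259), and 5 of its 7 genes were higher. The markers did not move as 1 block, since Lep, the hormone leptin, differed by 3.30 (limma adjusted p = 0.0596) and Cfd, the fat protein adipsin, by -1.87 (limma adjusted p = 0.139). With the adipocyte score as a covariate in limma, 3 of the 10 genes passed, beside 0.742% of all genes. They were Thrsp at -1.34 (limma adjusted p = 0.00265), Scd1 at -1.10 (limma adjusted p = 0.0454) and Mlxipl at -1.12 (limma adjusted p = 0.0314). The SE of Scd1 was 0.24 in this fit and 0.44 without the score. The muscle score differed by -1.61 (exact p = 0.331), and with both scores as covariates, added after seeing the data, Fasn at -1.29 (adjusted p = 0.0361) passed as well, making 4 beside 0.66% of all genes. In a limma fit of all 8 groups, Fasn passed with an adjusted p of 0.0281, beside 0.374% of all genes, and with the runs of library numbers as a covariate Fasn (adjusted p = 0.0157) and Acly (adjusted p = 0.0373) passed, beside 0.572%. The direction was lower for all 10 genes in each of the 26 alternatives tried.

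The T2D model gave the same direction. In HFD-STZ24wk against SD24wk, which share the SD24wk samples with the comparison above, all 10 genes again had the lower mean in the disease group, with a median difference of -0.55 beside 0.001 over all genes. None passed the adjusted threshold, which 0.0336% of all genes did, and 6 had an unadjusted p under 0.05, against 2.69% of all genes with such a p and a lower mean. The 6 were Fasn, Acaca, Acacb, Acly, Me1 and Scd2.

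Fasn lay between 13.30 and 14.05 in HFD-STZ24wk, with a median of 13.77, and all 8 samples were under the SD24wk median, while 6 of 8 SD24wk samples were above all of them. The difference was -1.04 (SE 0.27, 95% interval -1.60 to -0.47, exact p = 0.00186), a 2.05-fold higher level in SD24wk, and the adjusted p was 0.425. Acaca differed by -0.67 (SE 0.20, exact p = 0.00357, adjusted p = 0.623) and Acacb by -0.98 (SE 0.35, exact p = 0.0157), with all 8 HFD-STZ24wk samples of each under the SD24wk median. Acacb was lower in all 8 runs of library numbers and Fasn in 7 of 8, against 0.465% of all genes lower in all 8.

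Acly differed by -0.56 (SE 0.23, exact p = 0.0424), and here HFD-STZ24wk replicate 7 at 14.33 stood far above the other 7 samples, which ended at 13.47. The same replicate was the lowest of its group for Acaca, Acacb, Fasn, Scd1, Scd2, Me1 and Mlxipl. Without it all 10 genes stayed lower than in SD24wk, with a median difference of -0.46. Leaving out each sample in turn gave Fasn from -1.18 to -0.85, Acaca from -0.75 to -0.54 and Scd2 from -0.35 to -0.23. Me1 differed by -0.36 (SE 0.15, exact p = 0.0387) and Scd2 by -0.29 (SE 0.12, exact p = 0.0235). The remaining genes overlapped widely. Scd1 differed by -0.43 (interval -1.41 to 0.56), Thrsp by -0.70 (interval -1.42 to 0.03), Mlxipl by -0.54 (interval -1.37 to 0.30) and Elovl6 by -0.09 (interval -0.35 to 0.17). Fasn passed in the limma fit of all 8 groups (adjusted p = 0.0218, beside 0.0897% of all genes) and with the runs as a covariate (adjusted p = 0.0198, beside 0.0953%). The muscle score was 9.31 ± 2.32 in HFD-STZ24wk and 11.17 ± 3.29 in SD24wk (n = 8 each), a difference of -1.86 (exact p = 0.217) with all 6 of its genes lower, and the Schwann cell score differed by -0.11 (exact p = 0.276) with all 4 of its genes lower. With the muscle score as a covariate Acacb was at -0.71, and the part of the Schwann cell score was not tested. The adipocyte score was higher in HFD-STZ24wk by 0.69 (exact p = 0.193), and with it as a covariate Mlxipl passed at -1.07 (adjusted p = 0.0468, beside 0.101% of all genes). Elovl6 was the only gene of the 10 that changed sign in any alternative, to 0.02 with both scores.

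HFD-STZ24wk and HFD24wk were close to each other. Of the 10 genes 5 were higher and 5 lower, between -0.19 and 0.19. Me1 at -0.19 (SE 0.08, exact p = 0.0371, adjusted p = 0.785) was the 1 gene with an unadjusted p under 0.05, beside 4.17% of all genes lower at that level. The adjusted threshold was passed by 0% of all genes.

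**Figure D2:**
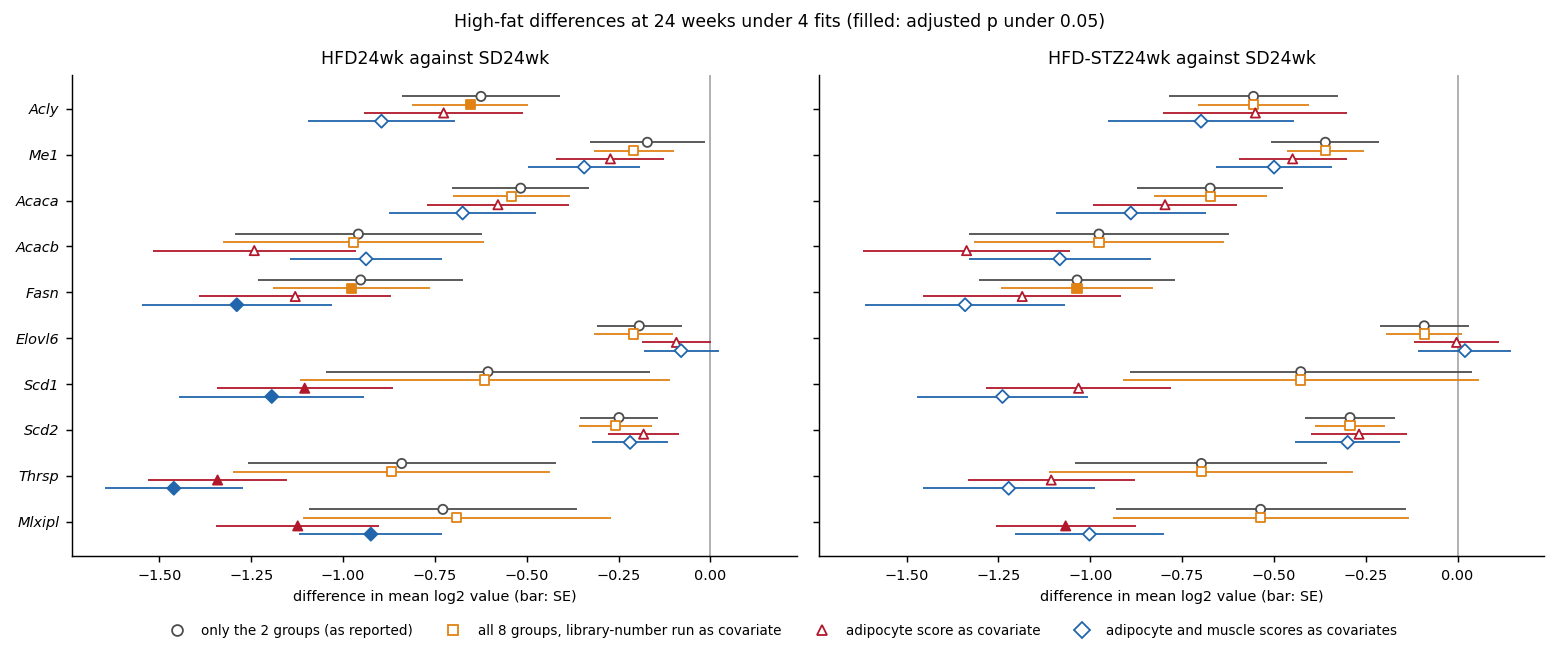
Difference in mean log2 value (horizontal axes, bars are SE) of each gene for HFD24wk (left) and HFD-STZ24wk (right) against SD24wk under 4 fits, with filled symbols where the adjusted p was under 0.05. On the left every symbol lies below 0, and Thrsp, Scd1 and Mlxipl move from -0.84, -0.61 and -0.73 to -1.34, -1.10 and -1.12 once the adipocyte score is a covariate.

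Dietary reversal from the high-fat diet alone was examined by HFD-DR24wk against HFD24wk. The mean of 9 of the 10 genes was higher after reversal, with a median difference of 0.20 beside -0.002 over all genes, and Me1 was the exception at -0.11 (interval -0.33 to 0.12). None passed the adjusted threshold, which 0.0108% of all genes did. An unadjusted p under 0.05 was reached by 2 genes, Fasn and Acaca, both higher, against 2.15% of all genes higher at that level.

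Fasn lay between 13.79 and 14.86 in HFD-DR24wk, with a median of 14.02, and 3 of the 7 samples were above every HFD24wk sample. Its difference was 0.43 (SE 0.16, 95% interval 0.09 to 0.77, exact p = 0.0291, adjusted p = 0.642), and it was higher in 5 of the 6 runs with both groups. Acaca lay between 11.77 and 12.38, with a median of 12.18, and 4 of 7 samples were above all HFD24wk samples, with a difference of 0.26 (SE 0.10, exact p = 0.0396, adjusted p = 0.669). Acly at 0.20 (SE 0.10, exact p = 0.0798), Scd2 at 0.18 (exact p = 0.0758) and Acacb at 0.73 (SE 0.40, exact p = 0.127) had intervals that included 0. Scd1 differed by 0.07 (interval -0.75 to 0.90), Elovl6 by 0.15, Thrsp by 0.20 and Mlxipl by 0.38 (interval -0.49 to 1.26).

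The muscle score was 12.32 ± 2.35 in HFD-DR24wk and 9.56 ± 2.89 in HFD24wk (n = 7 each), a difference of 2.77 (exact p = 0.0746), and all 6 muscle genes were higher. The adipocyte score was lower by a difference of -1.09 (exact p = 0.111). With the muscle score as a covariate, added after seeing the data, Acacb went from 0.73 to 0.03, and Scd1, Thrsp and Mlxipl turned to -0.32, -0.09 and -0.28. With the adipocyte score as a limma covariate Fasn was at 0.58 (adjusted p = 0.342) and Scd1 at 0.77 (adjusted p = 0.258), and Elovl6 turned to -0.01. Fasn and Acaca kept their sign in all 25 alternatives, with Fasn between 0.28, with the muscle score, and 0.58, and Acaca down to 0.17 with both scores.

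Set beside the mice that never had the high-fat diet, HFD-DR24wk lay lower for all 10 genes, and no difference reached an unadjusted p under 0.05. Fasn differed by -0.52 from SD24wk (interval -1.14 to 0.10, exact p = 0.139), a range that includes both no difference and the difference seen between HFD24wk and SD24wk. The smallest adjusted p of the 10 was 0.925, and 0% of all genes passed.

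In the T2D model the genes parted after reversal. HFD-STZ-DR24wk against HFD-STZ24wk had 6 genes higher and 4 lower, with a median difference of 0.14 beside 0.01 over all genes, and none passed the adjusted threshold, which 0.084% of all genes did. Thrsp and Scd1, both characteristic of fat, were lower by differences of -1.03 and -1.14, and Scd2 was higher by 0.34. These 3 had an unadjusted p under 0.05, beside 4.51% of all genes that were lower and 1.97% that were higher at that level.

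Thrsp lay between 9.44 and 11.34 in HFD-STZ24wk, with a median of 10.94, and between 8.45 and 10.55 in HFD-STZ-DR24wk, with a median of 9.77. The ranges overlapped, with 5 of 8 HFD-STZ24wk samples above all HFD-STZ-DR24wk samples (SE 0.32, exact p = 0.0123, adjusted p = 0.358). Scd1 lay between 14.30 and 17.31, with a median of 16.00, and after reversal between 13.47 and 15.73, with a median of 14.81 (SE 0.47, exact p = 0.0496, adjusted p = 0.667). Scd2 went from 16.79 to 17.66 before to 17.17 to 17.87 after reversal, with 3 of 6 samples above all HFD-STZ24wk samples (SE 0.15, exact p = 0.039, adjusted p = 0.712).

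Fasn differed by 0.13 (interval -0.17 to 0.42, exact p = 0.402), and Acaca was at 0.23 (interval -0.09 to 0.55). Acly at -0.08, Acacb at 0.19, Me1 at 0.15, Elovl6 at 0.25 and Mlxipl at -0.45 likewise had intervals that included 0. The adipocyte score was 10.77 ± 1.10 in HFD-STZ-DR24wk (n = 6) and 12.94 ± 1.10 in HFD-STZ24wk (n = 8), a difference of -2.17 (exact p = 0.00333), with 7 of 7 of its genes lower and Lep at -3.80 (adjusted p = 0.0591). With that score as a covariate Thrsp was at 0.07 and Scd1 at 0.54, so both lost the lower direction, while Scd2 remained higher at 0.26. Mlxipl turned to 1.02 and Elovl6 to -0.05 in the same fit. Without the 2 samples that stood apart, Acacb turned to -0.43 and Acly to 0.15.

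Whether reversal acted differently in the 2 models was tested by the interaction of DR with the model. No gene of the 10 passed (limma adjusted p = 1 for each, and 0% of all genes passed). Thrsp had the only unadjusted p under 0.05, with an interaction of -1.23 (SE 0.53, interval -2.32 to -0.14), beside 0.699% of all genes lower at that level. It was -0.68 with the adipocyte score as a covariate and -1.43 without the 2 samples that stood apart. For Fasn the interaction was -0.31 (interval -0.76 to 0.14), so the different values of 0.43 and 0.13 were not shown to differ.

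In HFD-STZ-DR24wk against SD24wk, 8 genes were lower and 2 higher, and 5 had an unadjusted p under 0.05, beside 4.67% of all genes lower at that level, while 0% of all genes passed the adjusted threshold. Thrsp differed by -1.72 (SE 0.39, exact p = 0.00233, adjusted p = 0.313), a 3.31-fold higher level in SD24wk, and 7 of 8 SD24wk samples were above all HFD-STZ-DR24wk samples. Scd1 differed by -1.57 (SE 0.42, exact p = 0.00466), Fasn by -0.91 (SE 0.30, exact p = 0.0157), Acly by -0.63 (SE 0.24, exact p = 0.0316) and Acaca by -0.45 (SE 0.20, exact p = 0.0666). The adipocyte score differed by -1.47 (exact p = 0.016), and with it as a covariate Thrsp was at -0.76, Scd1 at -0.52, Fasn at -0.57 and Acaca at -0.27. With both scores Thrsp was at -0.75, Scd1 at -0.38, Fasn at -0.42, Acly at -0.29 and Acaca at -0.16. Without SD24wk replicate 4, the sample with the lowest Thrsp of its group, Thrsp was at -1.94 with an adjusted p of 0.0453.

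Between the reversed groups, Thrsp at -1.09 (SE 0.34, exact p = 0.014), Scd1 at -1.04 (SE 0.35, exact p = 0.0245) and Fasn at -0.39 (SE 0.17, exact p = 0.0624) were lower in HFD-STZ-DR24wk than in HFD-DR24wk. These 3 had an unadjusted p under 0.05, beside 2.1% of all genes lower at that level, and no gene of all tested passed (0%). The adipocyte score differed by -1.02 between the same groups (exact p = 0.132), and with it as a covariate Thrsp was at -0.73, Scd1 at -0.47 and Fasn at -0.32.

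**Figure D3:**
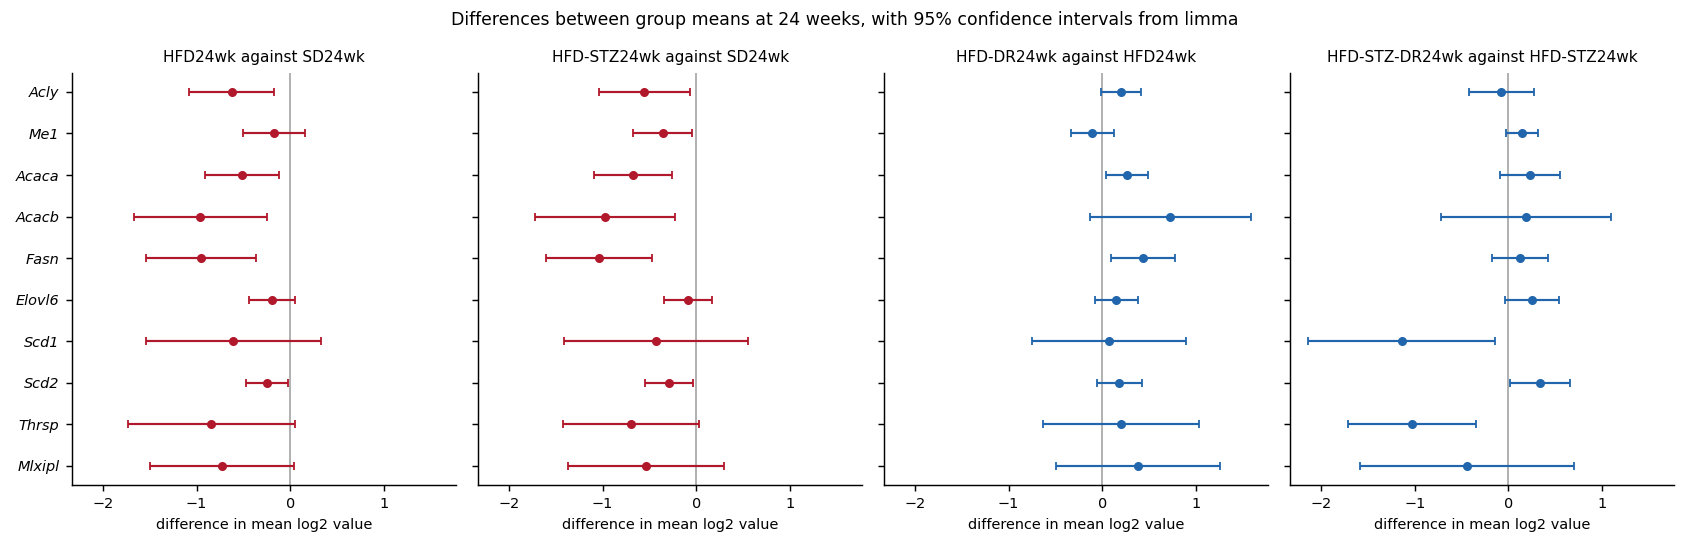
Difference in mean log2 value (horizontal axes) of each gene in the 4 comparisons of 24-week groups, with 95% confidence intervals from limma. In the left pair of panels all points lie below 0, in the third all but Me1 at -0.11 lie above it, and in the fourth Scd1 at -1.14 and Thrsp at -1.03 lie lowest.

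At 16 weeks, after the high-fat diet but before reversal, the 10 genes did not share 1 direction in HFD16wk against SD16wk, with 4 higher and 6 lower and a median difference of -0.13. Acly and Scd2 were lower with an unadjusted p under 0.05, beside 3.57% of all genes lower at that level, and none of the 10 passed the adjusted threshold, which 0.00557% of all genes did. Acly was 13.76, 13.95, 13.73, 13.97 and 14.72 in the 5 SD16wk samples and between 13.39 and 13.78 in HFD16wk, with a median of 13.64. The difference was -0.44 (SE 0.15, exact p = 0.00379, adjusted p = 0.48), and 3 of 5 SD16wk samples were above all HFD16wk samples. Without SD16wk replicate 5, at 14.72, the difference was -0.26, with the adipocyte score as a covariate it was -0.71 and with both scores -0.82. Scd2 differed by -0.22 (SE 0.09, exact p = 0.0164, adjusted p = 0.569). Both were lower in all 5 runs that held the 2 groups, against 4.27% of all genes. The myelinating Schwann cell score was lower beside Scd2, with 18.01 ± 0.10 in HFD16wk (n = 7) and 18.23 ± 0.20 in SD16wk (n = 5), a difference of -0.22 (exact p = 0.0227) with all 4 of its genes lower, and its part was not tested. With both the adipocyte and muscle scores as covariates Scd2 was at -0.11.

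Fasn was 13.97, 13.72, 14.09, 14.51 and 15.52 in SD16wk and between 13.64 and 14.38 in HFD16wk, with a median of 13.91. SD16wk replicate 5 was the highest of its group for 8 of the 10 genes, among them Fasn at 15.52, Scd1 at 17.63 and Thrsp at 12.39, and it also had the highest adipocyte score of the group at 12.43. In HFD-STZ16wk against SD16wk all 10 genes were lower, with a median difference of -0.19. This shared direction rested on SD16wk replicate 5. Without it, Acaca, Acacb, Scd1 and Mlxipl no longer had the lower mean in HFD-STZ16wk. Acaca, at 12.93 in that replicate, was 11.94, 11.59, 11.85 and 12.27 in the rest of SD16wk and between 11.93 and 12.17 in HFD-STZ16wk. Acly alone had an unadjusted p under 0.05, beside 4.42% of all genes lower at that level, and differed by -0.39 (SE 0.16, exact p = 0.0238, adjusted p = 0.586), with 13.66, 13.61, 13.77, 13.56 and 13.59 in HFD-STZ16wk. Without SD16wk replicate 5 it differed by -0.22. Thrsp differed by -0.72 (SE 0.67), and by -0.18 without the same sample. With the adipocyte score as a covariate it passed at -1.51 (limma adjusted p = 0.0372, beside 0.0392% of all genes), as it did with both scores at -1.53 (limma adjusted p = 0.0399, beside 0.0503%). The adjusted threshold was passed by 0% of all genes. The adipocyte score was higher by 2.21 in HFD16wk than in SD16wk (exact p = 0.0114) and by 1.04 in HFD-STZ16wk (exact p = 0.317).

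Thrsp was lower on average in HFD-STZ16wk than in HFD16wk. It was 9.33, 8.17, 10.08, 9.58 and 10.43 in HFD-STZ16wk and between 9.84 and 11.59 in HFD16wk, with a difference of -1.13 (SE 0.36, exact p = 0.0177, adjusted p = 0.987). This was the only gene of the 10 with an unadjusted p under 0.05, beside 2.9% of all genes lower at that level and 0% past the adjusted threshold. The adipocyte score differed by -1.17 between the same groups (exact p = 0.0884), and with it as a covariate Thrsp was at -0.49, and with both scores at -0.18.

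The high-fat difference was not shown to change with age. The interaction of HFD with age was between -1.25 and 0.01 over the 10 genes, and that of HFD-STZ with age between -0.87 and 0.07. For Fasn they were -0.52 (interval -1.35 to 0.32) and -0.62 (interval -1.49 to 0.25). No gene of the 10 had an unadjusted p under 0.05 in either test, and 0% of all genes passed the adjusted threshold in each.

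Age itself was followed in SD, HFD and HFD-STZ mice, and Elovl6 was lower at 24 than at 16 weeks in each. It was 13.69, 13.81, 13.76, 13.37 and 13.19 in SD16wk and between 12.57 and 13.32 in SD24wk, a difference of -0.54 (SE 0.13, exact p = 0.00233, adjusted p = 0.269). In HFD16wk it was between 13.17 and 13.67 and in HFD24wk between 12.38 and 13.15, so these groups did not overlap, as for 0.196% of all genes (difference -0.53, SE 0.11, exact p = 0.000583, adjusted p = 0.128). In HFD-STZ16wk it was 13.50, 13.53, 13.47, 13.23 and 13.26, and 7 of 8 HFD-STZ24wk samples were below the lowest of these (difference -0.46, SE 0.13, exact p = 0.00699, adjusted p = 0.289). Elovl6 was lower at 24 weeks in all 5 runs of each comparison, as were 5.91%, 4.13% and 9.41% of all genes in SD, HFD and HFD-STZ mice. In the limma fit of all 8 groups it passed in SD mice (adjusted p = 0.046, beside 0.253% of all genes). With the runs as a covariate in that limma fit it passed in SD (adjusted p = 0.0135, beside 0.708%) and in HFD mice (adjusted p = 0.015, beside 0.125%), and in HFD-STZ mice its adjusted p was 0.0842. With the adipocyte score as a covariate in limma it was at -0.32 in SD mice (adjusted p = 1), where that score was higher by 1.79 at 24 weeks, and at -0.31 in HFD-STZ mice (adjusted p = 0.321). In HFD mice it was at -0.49 with that score in limma and passed (adjusted p = 0.00511, beside 0.174% of all genes), as it did with both scores (adjusted p = 0.00962, beside 0.158%).

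The myelinating Schwann cell score was lower at 24 weeks as well, by differences of -0.30 in SD (exact p = 0.0225), -0.25 in HFD (exact p = 0.00641) and -0.29 in HFD-STZ mice (exact p = 0.0148). Its part in the Elovl6 difference was not tested. Scd2, the other of the 10 genes that followed this score, differed by -0.25 in HFD (SE 0.10, exact p = 0.0157) and -0.39 in HFD-STZ mice (SE 0.15, exact p = 0.0186).

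The other differences with age were fewer. In SD mice Acacb and Mlxipl were higher at 24 weeks by 1.10 (SE 0.40) and 1.19 (SE 0.42), each with an exact p of 0.0295, while the adipocyte score was higher by 1.79 (exact p = 0.0303), and with it as a covariate they were at 0.28 and 0.31. The muscle score was 11.17 ± 3.29 in SD24wk (n = 8) and 8.73 ± 3.18 in SD16wk (n = 5), a difference of 2.44 (exact p = 0.206) with all 6 of its genes higher, and with both scores as covariates Acacb was at 0.0091 and Mlxipl at 0.019. Scd2 differed by -0.22 in SD mice with an exact p of 0.0233, though its unadjusted p in limma was 0.0587. In HFD mice Acly differed by -0.19 (SE 0.08, exact p = 0.035). In HFD-STZ mice Acaca differed by -0.38 (SE 0.14, exact p = 0.0218) and Thrsp by 1.21 (SE 0.37, exact p = 0.0124), the latter with an adipocyte score higher by 1.45 (exact p = 0.0567) and at 0.44 with that score as a covariate. No gene of the 10 passed the adjusted threshold with age, which 0%, 0.0654% and 0% of all genes did in SD, HFD and HFD-STZ mice. At an unadjusted p under 0.05, 5.43% of all genes were higher and 5.04% lower with age in SD mice, 3.22% were lower in HFD mice, and 5.85% were higher and 6.69% lower in HFD-STZ mice.

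How the genes varied between samples of the same group was described after the group means had been subtracted from the 53 samples. Permutations within groups (100000, 2-sided) gave the p-values, whose smallest possible value is 1e-05, and Benjamini-Hochberg adjustment was made over the 45 pairs of genes. The pairs had a median r of 0.32, from -0.68 to 0.88, with 13 of them below 0. Acaca and Fasn, consecutive enzymes of the pathway, were closest (r = 0.88, rho = 0.81, permutation p = 1e-05, adjusted p = 3.75e-05), with r = 0.79 without the 2 samples farthest from the median of Acaca. Fasn also went with Acly (r = 0.75, rho = 0.67), with r = 0.60 without the 2 samples farthest from the median of Acly. With Me1 it had r = 0.74 (rho = 0.57), and 0.64 without the 2 samples farthest from the median of Fasn. Acly and Acaca were less close, with r = 0.57 (rho = 0.52), and 0.34 without the 2 samples farthest from the median of Acaca.

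Scd1 went with Thrsp (r = 0.80, rho = 0.79) and Mlxipl (r = 0.65, rho = 0.71), and Acacb with Mlxipl (r = 0.85, rho = 0.83), each with a permutation p of 1e-05. Scd2 went with Elovl6 (r = 0.66, rho = 0.65), and Elovl6 went against Scd1 (r = -0.68, rho = -0.68), with the same permutation p. The 2 desaturases were themselves not shown to be related (r = -0.19, rho = -0.29, permutation p = 0.194). With the runs of library numbers removed as well, Acaca and Fasn had r = 0.86, Scd1 and Thrsp 0.79, and Scd2 and Elovl6 0.67. All these values come from the same 53 samples and share their tissue content.

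Relations with the cell scores were computed for 30 pairs of gene and score, of which 15 had an adjusted permutation p under 0.05. Scd1 (r = 0.88, rho = 0.89), Thrsp (r = 0.83, rho = 0.80), Mlxipl (r = 0.72, rho = 0.75) and Acacb (r = 0.57, rho = 0.67) rose with the adipocyte score, with an adjusted permutation p of 0.000133 or less. Fasn was related to it less closely (r = 0.44, rho = 0.50, adjusted permutation p = 0.00422), and Acaca (r = 0.28, adjusted permutation p = 0.117), Me1 (r = 0.30, 0.0803) and Acly (r = 0.12, 0.486) did not pass. Elovl6 (r = 0.81, rho = 0.83) and Scd2 (r = 0.62, rho = 0.61) rose with the myelinating Schwann cell score, and both were lower where the adipocyte score was higher (r = -0.66 and r = -0.38). Mlxipl (r = -0.68), Acacb (r = -0.60), Scd1 (r = -0.56) and Thrsp (r = -0.48) fell with the Schwann cell score, with an adjusted permutation p of 0.00337 or less. Acacb and Mlxipl also went with the muscle score (r = 0.55, rho = 0.43 and r = 0.45, rho = 0.32), but r was only 0.39 and 0.29 without the 2 samples farthest from the median score. By rho, Mlxipl did not pass with the muscle score (adjusted permutation p = 0.0576).

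**Figure D4:**
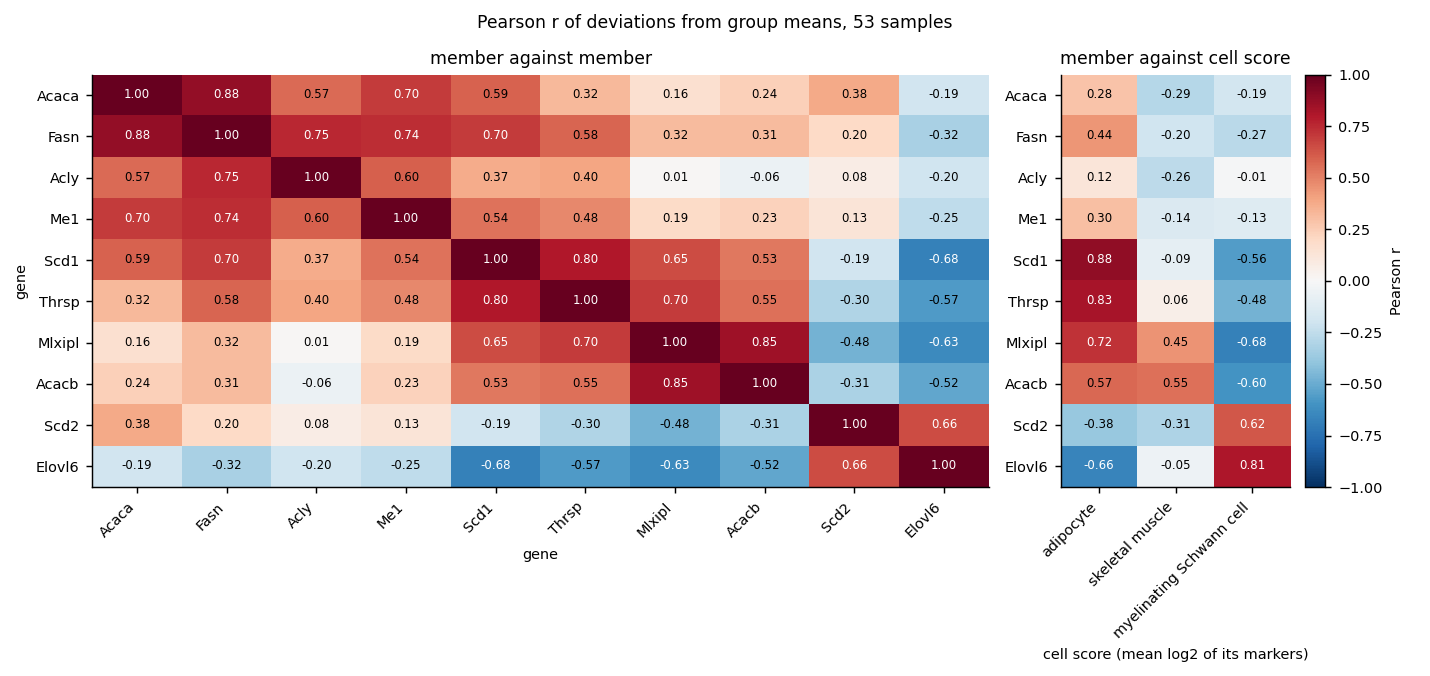
Pearson r over 53 samples, after group means were subtracted, between each pair of the 10 genes (left) and between each gene and 3 cell scores (right), on a colour scale from -1 to 1. Acaca and Fasn stand at 0.88 in the upper left corner, Scd1 and Thrsp at 0.88 and 0.83 with the adipocyte score, and Elovl6 at 0.81 with the Schwann cell score.

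**Figure D5:**
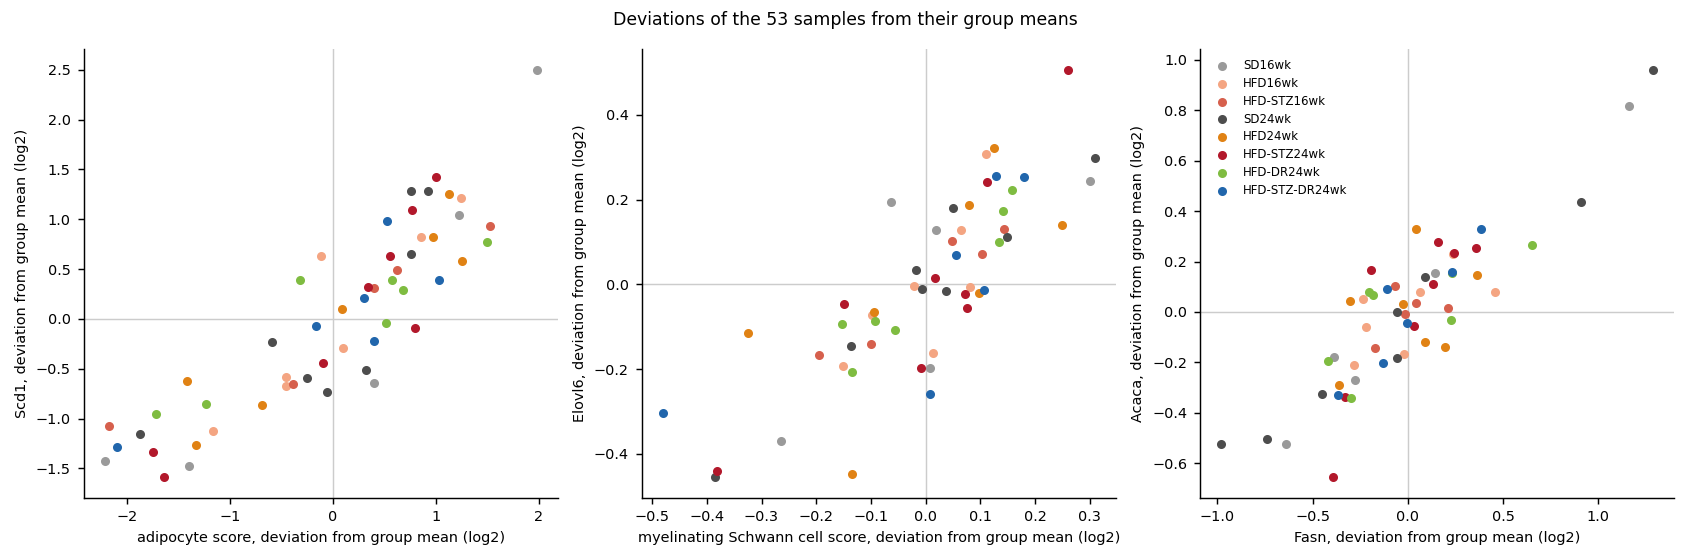
Deviation of each of the 53 samples from its group mean (log2, both axes), for Scd1 against the adipocyte score, Elovl6 against the myelinating Schwann cell score and Acaca against Fasn, with 1 point per sample coloured by group. The r values are 0.88, 0.81 and 0.88, and in the right panel SD24wk replicate 6, with Fasn at 16.02, and SD16wk replicate 5, with Fasn at 15.52, lie farthest to the upper right.

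The genes most like each of the 10 over the 53 samples, by Pearson r among 18069 genes and with the group means left in, divided in the same way. Acaca and Fasn were each other's closest gene (r = 0.90). Acss2, which makes acetyl-CoA from acetate, was the closest to Acly (r = 0.91) and the second to Fasn (r = 0.87), and Fasn and Sec23b followed for Acly (r = 0.82 and 0.72), Acly for Fasn, and Vcl and Ctnnb1 for Acaca (r = 0.73 and 0.71). Pmp22, itself a gene of the Schwann cell score, was the closest to Elovl6 (r = 0.95), followed by Chst2 and the ceramide synthase Cers2 (r = 0.94 for both). Scd2 had Osbpl5, Usp6nl and the dystroglycan gene Dag1 (r = 0.90, 0.90 and 0.89).

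Slc2a4, the insulin-responsive glucose transporter of fat and muscle, was closest to Mlxipl (r = 0.92) and second to Acacb (r = 0.90), after the carnitine acetyltransferase Crat (r = 0.90) and before Ddo (r = 0.89), while Mlxipl was followed by Cdh13 and Pfkfb1 (r = 0.88 for both). Scd1 had Cdo1, Ces1f and Cxcl14 (r = 0.90, 0.89 and 0.89), and Thrsp had Sfxn1, Apoc1 and H2-Q10 (r = 0.89, 0.89 and 0.87). Me1 was less like any gene, with Echdc1, Fasn and Tmem248 (r = 0.74, 0.73 and 0.71).

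Of 16 regulators, 6 were higher and 10 lower in HFD24wk than in SD24wk, with a median difference of -0.07, and 8 were higher and 8 lower in HFD-STZ24wk. Srebf1, the insulin-driven transcription factor of lipogenesis, was at -0.32 in HFD24wk (SE 0.12, limma adjusted p = 0.438) and Nr1h2, an oxysterol receptor, at -0.14 (SE 0.06). In HFD-STZ24wk the smallest p among regulators belonged to Mbtps1, a protease that activates Srebf1, at -0.17 (SE 0.08) and Usf1 at 0.11. No gene of the 4 pathway lists passed the adjusted threshold in any of the 4 main comparisons.

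Acss2 led the 12 genes of substrate and NADPH supply, at -0.55 in HFD24wk (SE 0.22, adjusted p = 0.47) and -0.62 in HFD-STZ24wk (SE 0.21, adjusted p = 0.795), with 4 genes of this list higher and 8 lower in each. Pdha1 followed in HFD24wk at -0.34 and the citrate carrier Slc25a1 in HFD-STZ24wk at -0.19. Of the elongation and desaturation genes outside the 10, Fads3 went the other way, with 0.50 in HFD24wk (SE 0.14, adjusted p = 0.249) and 0.47 in HFD-STZ24wk (SE 0.11, adjusted p = 0.352), while Fads2 was at -0.33 in HFD24wk and Fads1 at -0.16 in HFD-STZ24wk. In that list 6 were higher and 9 lower of 15 tested in HFD24wk, and 7 were higher and 9 lower of 16 in HFD-STZ24wk. Of 6 tested genes of mitochondrial fatty acid synthesis, 3 were higher and 3 lower in HFD24wk, led by Mcat at -0.29 (SE 0.08, adjusted p = 0.228) and Ndufab1 at -0.15, and 2 were higher and 4 lower in HFD-STZ24wk, where Mecr was at 0.22 and Cbr4 at 0.06.

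After reversal the list genes with the smallest p were mostly lower. Pparg, the master regulator of adipocytes, was at -1.05 in HFD-DR24wk (SE 0.46, adjusted p = 0.725) and -1.36 in HFD-STZ-DR24wk (SE 0.34, adjusted p = 0.179), and Nr1h3 at -0.19 and -0.23. Fads3 was at -0.46 (SE 0.15) and -0.44 (SE 0.13), Fads2 at 0.30 in HFD-DR24wk and Hacd2 at -0.42 in HFD-STZ-DR24wk. Slc25a10 at -0.30 and G6pdx, the first enzyme of the pentose phosphate pathway, at -0.44 led the supply genes in HFD-DR24wk, and Idh1 at -0.36 and Pgd at -0.31 in HFD-STZ-DR24wk. Mcat at 0.20 and Mecr at -0.19 led mitochondrial fatty acid synthesis in HFD-DR24wk, and Mecr at -0.24 and Acsf3 at -0.06 in HFD-STZ-DR24wk. In HFD-DR24wk 11 of 16 regulators, 7 of 16 elongation and desaturation genes, 5 of 12 supply genes and 2 of 6 mitochondrial genes were higher, and in HFD-STZ-DR24wk 10, 9, 5 and 0 of the same numbers.

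Markers of the remaining cell types are given by their lists. Between HFD24wk and SD24wk the median difference was -0.04 over 4 genes of non-myelinating and repair Schwann cells, -0.04 over 3 endothelial genes, -0.03 over 3 fibroblast genes and 0.34 over 3 macrophage genes, with the macrophage genes all higher in HFD24wk and none of the lists holding a gene past the adjusted threshold. In HFD-STZ24wk against SD24wk all 3 fibroblast genes were lower, with Col1a1 at -0.31, Dcn at -0.36 and Pdgfra at -0.49. All 4 genes of non-myelinating and repair Schwann cells were higher, with a median difference of 0.23. The mean of these 4 genes was 12.17 in HFD-STZ24wk replicate 7, which stood apart, and 10.09 to 10.51 in every other sample of its group. In SD24wk that mean ran from 9.91 to 10.58. The same replicate is among the samples of the next comparison. In HFD-STZ-DR24wk the mean of these 4 genes ran from 10.11 to 10.51. The direction of their difference after reversal was not tested without the replicate. The medians of the endothelial and macrophage genes were -0.0011 and -0.069, and none passed. In HFD-STZ-DR24wk against HFD-STZ24wk the medians were 0.10 for fibroblast, -0.17 for non-myelinating and repair Schwann cell, -0.19 for endothelial and -0.33 for macrophage genes, and none passed. In HFD-DR24wk against HFD24wk the 3 macrophage genes were all lower, with a median difference of -0.60, and none passed. The liver gene Alb was at -0.61 in HFD24wk against SD24wk and was not called.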

How the data were processed

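RNA sequencing values of 53 sciatic nerve samples in 8 groups were used. The authors removed low-quality reads and adapters, aligned reads with HISAT2 to mm10 and counted them with featureCounts, and the submitters' processing notes name DESeq2. Each deposited number is a log2 value, and its between-sample normalization is not given in the sources used here. Reads per gene and depth are therefore unknown, and the number of samples limits precision. Genes whose mean log2 value in the groups compared was at least the log2 of 10 were tested, except 25 with a value above 22.

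Each of 14 comparisons was fitted on its 2 groups with limma 3.58.1 (R 4.3.3), with Benjamini-Hochberg adjustment over all genes and a threshold of 0.05. The 3 interactions were fitted likewise. For each of the 10 genes a 2-sided exact permutation test was added (140 tests, scipy 1.17.1). Scripts were tested on simulated data. The myelinating Schwann cell score was reduced to 4 genes, since some markers of its list are not reported here. The genes and lists were chosen with earlier results of these data known. All 10 genes were named, as were the 2 genes of each pathway list with the smallest p in the 4 main comparisons and the 3 genes most like each of the 10. Runs of consecutive library numbers are only what the sample labels show. Alternatives left out each sample, changed the filter or the fit, or added the run or cell scores as covariates. The muscle score, both scores together and the removal of 2 samples that stood apart were chosen after seeing the data.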

Additional observations from a re-analysis of the deposited data

Results flagged for a closer look

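Within groups of 4 to 10 samples, 8 of 104 tests found a sample far from the others by Dixon's criterion, which chance gives in about 1 of 20, and 6 of these were among the 80 tests of the 10 genes. Acacb was at 12.06 in SD24wk replicate 5, where the next sample was at 10.61, and at 11.61 in HFD-STZ-DR24wk replicate 4, where the next was at 9.43. The skeletal muscle scores of these samples were 17.07 and 16.24, the highest of all samples. Acly was at 14.72 in SD16wk replicate 5 beside 13.97, at 14.33 in HFD-STZ24wk replicate 7 beside 13.47, and at 12.88 in HFD-STZ-DR24wk replicate 4 beside 13.40. Me1 was at 14.38 in HFD16wk replicate 2 beside 14.09. The muscle score was at 14.33 in SD16wk replicate 2 beside 7.85, and the myelinating Schwann cell score at 17.47 in HFD-STZ-DR24wk replicate 4 beside 17.96.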

How the results depend on the processing

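Of 1645 alternative values of 65 differences, 1599 kept their direction and their side of the threshold, 21 passed the threshold where the reported value had not, and 25 changed direction. The 65 were all 10 genes in the 4 main comparisons and, elsewhere, only differences with an unadjusted p under 0.05. Differences that passed the threshold in an alternative other than leaving out a sample were added. The rest, such as Acaca in HFD-STZ16wk against SD16wk, were not counted, so stability of small differences is not shown. The count of the 10 genes past the threshold, 0 in every reported comparison, moved in 15 of 365 alternatives. For HFD24wk against SD24wk it was 1 in the fit of all 8 groups, 2 with the runs, 3 with the adipocyte score and 4 with both scores as covariates. For HFD-STZ24wk against SD24wk it was 1 in each of the first 3 of these fits. It was 1 for HFD-STZ16wk against SD16wk with the adipocyte score and with both scores (Thrsp), 1 for SD24wk against SD16wk in the fit of all 8 groups and with the runs (Elovl6), and 1 for HFD24wk against HFD16wk with the runs, the adipocyte score and both scores (Elovl6). For HFD-STZ-DR24wk against SD24wk it ran from 0 to 1 when each sample was left out, with Thrsp passing without SD24wk replicate 4.

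For HFD-DR24wk against HFD24wk, Elovl6 turned to -0.0095 with the adipocyte score and -0.099 with both scores, and with the muscle score Scd1 turned to -0.32, Thrsp to -0.092 and Mlxipl to -0.28. Leaving out each sample gave Scd1 from -0.14 to 0.28 and Thrsp from -0.014 to 0.39. For HFD-STZ-DR24wk against HFD-STZ24wk, the adipocyte score turned Scd1 to 0.54, Elovl6 to -0.049, Thrsp to 0.069 and Mlxipl to 1.02, and both scores gave Scd1 0.75, Elovl6 -0.041, Thrsp 0.025 and Mlxipl 0.79. Without the 2 samples that stood apart Acacb was at -0.43 and Acly at 0.15, and leaving out each sample gave Acacb from -0.22 to 0.34 and Acly from -0.13 to 0.046. For HFD-STZ24wk against SD24wk, Elovl6 turned to 0.020 with both scores. The causes were not tested. The sample labels carry no replicate numbers that pair samples. The runs of library numbers were used as a block instead, in the fit of all 8 groups given above as with the runs. Reads behind a value are unknown, so the limits of depth could not be given.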
